A study of Rattus norvegicus with 11 samples.

Results

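The 4 antioxidant genes Hmox1, Nqo1, Sod1 and Cat were compared between right ventricles of Sprague Dawley rats treated with monocrotaline and with vehicle. They are the members with a row in the count table among 6 antioxidant genes chosen by Ensembl ID, out of 37550 features in all. The IDs chosen for Nfe2l2 (ENSRNOG00000001548) and Sod2 (ENSRNOG00000019048) have no row in the table used here, so both genes were not analysed here and no other row was put in their place. The table holds IDs alone, and the gene names are those under which the IDs were chosen.

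Monocrotaline is a pyrrolizidine alkaloid used in rats to damage the pulmonary vasculature, which leads to pulmonary hypertension and loads the right side of the heart. There were 6 vehicle libraries (replicates 1 to 6) and 5 monocrotaline libraries (replicates 1, 2, 3, 4 and 6), each of total RNA from right ventricle cut free of the left ventricle and vessels and depleted of ribosomal RNA. The labels give no dose, time after treatment, age or sex, and they leave unstated whether different libraries are different animals. The p-values therefore measure the spread between these libraries. The labelled tissue and the presence of other cell types could not be checked against marker genes, because no ID other than those chosen could be paired with a name.

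NRF2, the product of Nfe2l2, is a transcription factor that the adaptor protein KEAP1 marks for degradation in unstressed cells. Oxidants and electrophiles modify KEAP1, after which NRF2 accumulates, pairs with small MAF proteins and binds antioxidant response elements near its target genes. Hmox1 and Nqo1 are widely used readouts of this pathway, and Hmox1 is also held down by the repressor BACH1 and raised by heme and inflammatory signals. Sod1 and Cat encode enzymes of the basal defence: superoxide dismutases turn superoxide into hydrogen peroxide, and catalase turns hydrogen peroxide into water and oxygen. The heart consumes much oxygen in its mitochondria and forms superoxide as a by-product.

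The promoter windows of Sod1, Cat and Nqo1 are shown because the first 2 of these genes fell and the third did not pass the test. They run from 250 bases before to 50 bases after the transcript start in RefSeq (GRCr8 build), are written on the strand of the gene, and carry the CCAAT box in capitals (CCAAT, or ATTGG where it lies on the other strand). The RefSeq table used here matched 5 of the 6 chosen genes by symbol, all but Hmox1, whose window was not searched.
Sod1, chr11:42942573-42942872, plus strand: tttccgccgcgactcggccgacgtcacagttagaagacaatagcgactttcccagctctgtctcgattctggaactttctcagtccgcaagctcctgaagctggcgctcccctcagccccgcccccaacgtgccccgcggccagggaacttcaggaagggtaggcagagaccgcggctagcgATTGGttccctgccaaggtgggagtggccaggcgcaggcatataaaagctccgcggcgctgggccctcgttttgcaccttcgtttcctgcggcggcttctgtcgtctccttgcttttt
Cat, chr3:110329477-110329776, minus strand: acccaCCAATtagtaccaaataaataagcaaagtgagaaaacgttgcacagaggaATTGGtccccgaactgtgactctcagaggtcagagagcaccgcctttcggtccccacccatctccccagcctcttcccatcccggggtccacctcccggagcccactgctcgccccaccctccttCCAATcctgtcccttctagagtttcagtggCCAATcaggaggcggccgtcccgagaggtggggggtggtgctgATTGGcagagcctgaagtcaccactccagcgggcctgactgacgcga
Nqo1, chr19:52220218-52220517, minus strand: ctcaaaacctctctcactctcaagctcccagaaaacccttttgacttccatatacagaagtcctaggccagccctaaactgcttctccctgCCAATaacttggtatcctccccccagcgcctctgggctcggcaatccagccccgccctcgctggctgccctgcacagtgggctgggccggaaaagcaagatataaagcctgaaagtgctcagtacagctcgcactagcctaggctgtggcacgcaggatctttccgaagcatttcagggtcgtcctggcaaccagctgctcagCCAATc

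The antioxidant response element core TGACNNNGC, searched on both strands, had no match in the windows of Sod1, Cat or Nqo1. It was present in 12.1% of the 33469 windows of all genes, and in the windows of Nfe2l2 and Sod2, the genes without counts here. The AP-1 site TGANTCA, which can overlap longer forms of the response element, matched in none of these 5 windows and in 7.33% of all windows. CCAAT boxes occurred 5 times in the window of Cat, once in that of Sod1 and 2 times in that of Nqo1, against at least 1 in 37.5% and at least 5 in 0.218% of all windows. This search was added after the sequences were seen, and the cutoff of 5 is the count of Cat itself. These shares are therefore a description and not a test. A TATAAA match lay with its left end 28 bases before the start in Sod1 and 59 bases before it in Nqo1, and Cat had none. TATAAA was present in 14.2% of all windows. The GC box GGGCGG matched in the windows of Sod1 and Nqo1 but not of Cat, and in 33.1% of all windows. These searches were also added after the sequences were seen. The motif matches describe letters in these windows only. Sequence farther from the start was not searched, so a missing match does not show that a gene lacks the element.

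Of the 4 measured genes, Hmox1 rose, Sod1 and Cat fell, and Nqo1 did not pass the test. All 4 passed the filter on low counts. Of the 15099 features tested with edgeR's quasi-likelihood test, 12.7% were called higher and 11.1% lower with monocrotaline at a Benjamini-Hochberg adjusted p under 0.05, or 23.8% in either direction. The median log2 fold change was −0.27 over the 4 genes and −0.01 over all features tested. These 4 genes are too few for their share of calls to be set against that background. At an FDR of 0.01 the share of all features called was 9.85%, and against a minimum fold of 1.5 it was 3.17%. Total counts ran from 9581924 to 14438355 per library, and the 4 genes had between 77 and 3197 reads in each, and within a group the variance between libraries was 5.83 to 116 times that of counting error alone. In bulk tissue, less RNA per cell and fewer cells of a type cannot be told apart.

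**Figure D1:**
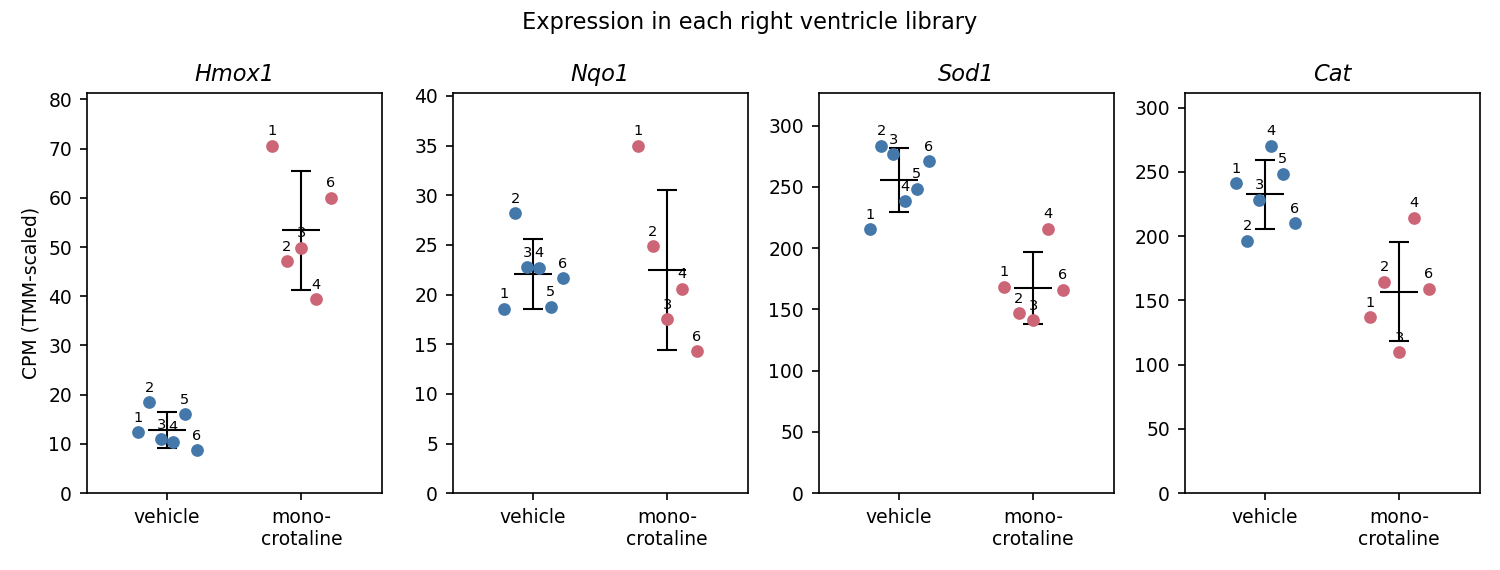
Normalised expression of Hmox1, Nqo1, Sod1 and Cat in each library, in CPM with TMM-scaled library sizes on a linear axis from 0. Points are libraries, numbered by replicate; black bars are the group mean and SD. Hmox1 is higher in all 5 monocrotaline libraries than in any vehicle library, Sod1 and Cat are below the vehicle range in 4 of 5, and Nqo1 overlaps.

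Hmox1 (ENSRNOG00000014117) encodes heme oxygenase-1, the inducible enzyme that breaks heme down to biliverdin, carbon monoxide and iron. In the vehicle group it had between 77 and 172 reads per library, and in the monocrotaline group 787, 681, 646, 457 and 750 reads in replicates 1, 2, 3, 4 and 6. In CPM, read counts relative to the library size, scaled by the trimmed mean of M values (TMM), the vehicle libraries lay at a lowest value of 8.78, a median of 11.7 and a highest value of 18.5. The monocrotaline libraries stood at 70.6, 47.2, 49.9, 39.4 and 59.99 CPM, in the same order of replicates. Every monocrotaline library was thus above every vehicle library, and replicate 4 was the lowest of the 5.

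The group means of Hmox1 were 12.9 ± 3.68 CPM for vehicle (SD, n = 6) against 53.4 ± 12.1 CPM for monocrotaline (SD, n = 5). The log2 fold change was 2.05 with SE 0.20 and a 95% interval of 1.62 to 2.48, or 4.15-fold (edgeR, adjusted p = 0.000266). Hmox1 ranked 114 of the 15099 features by log2 fold change. Groups that did not overlap in CPM, in either direction, were found in 10.9% of the features. The authors' deposited table gives Hmox1 a log2 fold change of 2.05 with an FDR of 1.67e-17, where 21.2% of its rows had an FDR under 0.05.

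Nqo1 (ENSRNOG00000012772) encodes NAD(P)H quinone dehydrogenase 1, which reduces quinones by a pair of electrons and so avoids reactive semiquinones. Its vehicle libraries held 246, 263, 201, 253, 197 and 190 reads, and its monocrotaline libraries 390, 359, 227, 239 and 179 reads in replicates 1, 2, 3, 4 and 6. In TMM-scaled CPM the vehicle libraries lay at a lowest value of 18.6, a median of 22.2 and a highest of 28.2. The monocrotaline libraries stood at 34.99, 24.9, 17.5, 20.6 and 14.3 CPM. Replicate 1 was above every vehicle library, replicates 3 and 6 were below every vehicle library, and the other two lay within the vehicle range.

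The group means of Nqo1 were 22.1 ± 3.52 CPM for vehicle (SD, n = 6) against 22.5 ± 8.01 CPM for monocrotaline (SD, n = 5), so the means were close while the monocrotaline libraries were spread more widely. The coefficient of variation was 15.9% with vehicle and 35.7% with monocrotaline, a difference that was not tested. The log2 fold change was 0.02 with SE 0.20 (edgeR, adjusted p = 0.948). Its 95% interval of −0.41 to 0.46 spans a fold of 0.752 to 1.37, so changes of that size in either direction were not excluded. Without monocrotaline replicate 1 the log2 fold change was −0.19 (edgeR, adjusted p = 0.463). The authors' deposited table gives a log2 fold change of 0.02 and an FDR of 0.971.

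Sod1 (ENSRNOG00000002115) encodes the copper-zinc superoxide dismutase of the cytosol and the space between the mitochondrial membranes. It had between 2376 and 2859 reads in the vehicle libraries and 1880, 2122, 1831, 2505 and 2075 reads in monocrotaline replicates 1, 2, 3, 4 and 6. In TMM-scaled CPM the vehicle libraries lay at a lowest value of 216, a median of 260 and a highest of 284. The monocrotaline libraries stood at 169, 147, 141, 216 and 166 CPM. Of the 5, 4 were below every vehicle library, and replicate 4 (215.8 CPM) lay just above the lowest vehicle library, replicate 1 (215.7 CPM).

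The group means of Sod1 were 256 ± 26.1 CPM for vehicle (SD, n = 6) against 168 ± 29.3 CPM for monocrotaline (SD, n = 5). The log2 fold change was −0.61 with SE 0.13 and a 95% interval of −0.89 to −0.33, which is 0.656 times the vehicle level (edgeR, adjusted p = 0.00608). The authors' deposited table gives a log2 fold change of −0.61 and an FDR of 0.00053. In the 8 libraries of lower detection (those with reads in fewer features, set out after Cat), the log2 fold change was −0.54 and the call was lost (edgeR, adjusted p = 0.0516). Reads that Sod1 may share with near-identical copies were not examined.

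Cat (ENSRNOG00000008364) encodes catalase, a heme enzyme of the peroxisome. It had 3197, 1833, 2021, 3017, 2613 and 1842 reads in vehicle replicates 1 to 6 and 1527, 2374, 1422, 2488 and 1988 reads in monocrotaline replicates 1, 2, 3, 4 and 6. In TMM-scaled CPM the vehicle libraries lay at a lowest value of 197, a median of 235 and a highest of 270.5. The monocrotaline libraries stood at 137, 164 (replicate 2), 110 (replicate 3), 214 and 159 CPM. Of the 5, 4 were below every vehicle library, and replicate 4 lay above vehicle replicates 2 (197 CPM) and 6 (209.9 CPM).

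The group means of Cat were 233 ± 26.8 CPM for vehicle (SD, n = 6) against 157 ± 38.7 CPM for monocrotaline (SD, n = 5). The log2 fold change was −0.57 with SE 0.16 and a 95% interval of −0.91 to −0.23, which is 0.675 times the vehicle level (edgeR, adjusted p = 0.0204). The authors' deposited table gives a log2 fold change of −0.57 and an FDR of 0.00939. The call was lost without monocrotaline replicate 1 (log2 fold change −0.52, edgeR adjusted p = 0.0565), with no filter on low counts (−0.56, adjusted p = 0.0576) and in the 8 libraries of lower detection (−0.47, adjusted p = 0.0905). The reported falls were 1.52-fold for Sod1 and 1.48-fold for Cat, next to the minimum fold of 1.5 among the alternatives. A test against that minimum could therefore hardly call either gene.

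**Figure D2:**
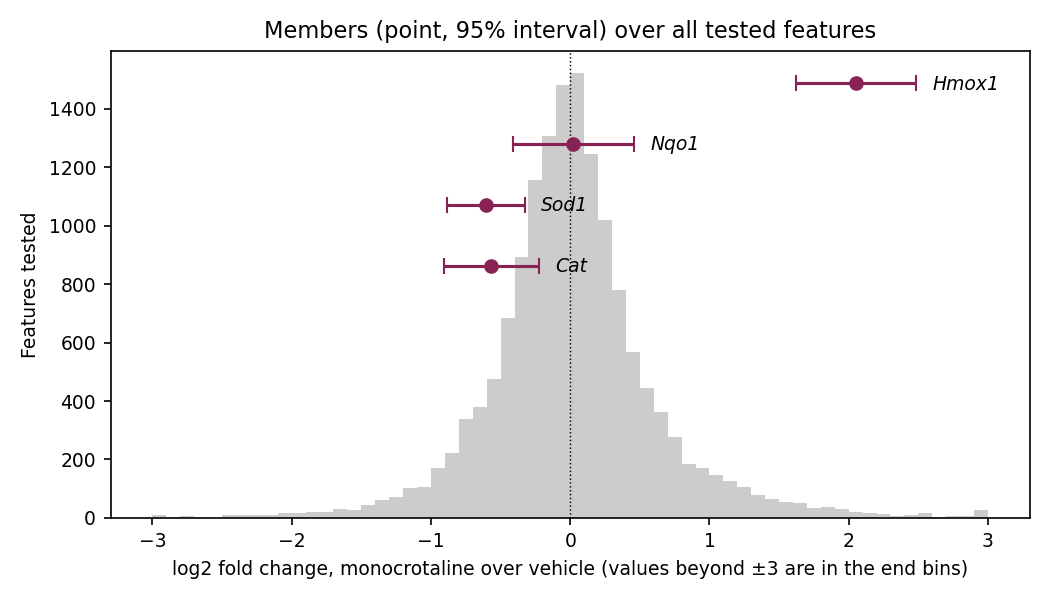
Distribution of log2 fold changes, monocrotaline over vehicle, of the 15099 features tested (grey bars, number of features per bin), with Hmox1, Nqo1, Sod1 and Cat as points with 95% intervals. The height of the points carries no value. Hmox1 lies in the upper tail at 2.05, Nqo1 at the centre, and Sod1 and Cat at −0.61 and −0.57.

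Monocrotaline replicate 4 was the library of its group nearest to the vehicle values for Hmox1, Sod1 and Cat alike. Without it the log2 fold changes were 2.16 for Hmox1 (edgeR, adjusted p = 2.25e-05), −0.70 for Sod1 (adjusted p = 0.000644) and −0.69 for Cat (adjusted p = 0.00255). Replicate 4 was singled out by these same values, so larger changes without it follow from that choice and are no added support. The share of all features called was also higher without it, 31.5% against 23.8%. More features, 28209 to 30593, had at least 1 read in monocrotaline replicate 3 and vehicle replicates 5 and 6 than in the other 8 libraries, where the number was 19825 to 21524. In these 8, 4 in each group, the log2 fold change of Hmox1 was 2.06 (edgeR, adjusted p = 0.00158), and Sod1 and Cat kept a negative sign without passing the test, as given above. With the class of detection as a covariate and all 11 libraries, the log2 fold changes were 2.04 for Hmox1, −0.62 for Sod1 and −0.61 for Cat, and all 3 were called (edgeR, adjusted p = 0.000122, 0.00563 and 0.0121).

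The size of each change depended on the scaling of the libraries. With library totals and no normalization factor, the median log2 fold change of all features moved from −0.01 to 0.21, and 23.5% of the features were called higher and 6.53% lower. The log2 fold changes were then 2.26 for Hmox1, 0.23 for Nqo1, −0.41 for Sod1 and −0.38 for Cat. Relative to that median they were 2.05, 0.03, −0.62 and −0.58. Hmox1 was still called higher, and Sod1 and Cat lower (edgeR, adjusted p = 0.000137, 0.0165 and 0.0413).

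Ratios of 2 genes' counts within a library do not depend on any scaling of that library, and gene length cancels when they are compared between groups. Hmox1 gained on each of the other 3 genes with monocrotaline. Its counts per count of Sod1 lay between 0.0324 and 0.065 with vehicle and between 0.182 and 0.419 with monocrotaline. The mean log2 ratio differed by 2.68 (exact two-sided permutation p = 0.00216 and 0.00433 after Benjamini-Hochberg adjustment over 6 pairs). That is the smallest p that 462 permutations can give, and in all 3 ratios with Hmox1 the groups did not overlap. The differences were 2.66 against Cat and 2.10 against Nqo1, both with the same exact permutation p. These 3 ratios share Hmox1 and the same libraries, and Hmox1 alone already separated the groups. They therefore restate its rise without the scaling factor and are not 3 separate results.

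The ratio of Nqo1 to Sod1 was higher with monocrotaline, while the ratio of Sod1 to Cat was near that of the vehicle group. Nqo1 itself did not pass the test (log2 fold change 0.02), whereas Sod1 fell (−0.61). The log2 ratio of Nqo1 to Sod1 was −3.53 ± 0.15 for vehicle (SD, n = 6) against −2.95 ± 0.54 for monocrotaline (SD, n = 5), a difference of 0.58 by an exact permutation test (p = 0.0152, adjusted p = 0.0227). Its monocrotaline replicates 1, 2 and 3, at 0.207, 0.169 and 0.124 Nqo1 counts per Sod1 count, lay above the highest vehicle ratio of 0.0994, and replicates 4 and 6 lay within the vehicle range. This call was lost without monocrotaline replicate 1 (difference 0.41, exact permutation, adjusted p = 0.0571) and without vehicle replicate 1, 3, 5 or 6 (adjusted p from 0.0595 to 0.0714). It was also lost in the 8 libraries of lower detection (difference 0.53, exact permutation, adjusted p = 0.257). The log2 ratio of Nqo1 to Cat differed by 0.56 and did not pass (exact permutation p = 0.0801, adjusted p = 0.0961).

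The Sod1 to Cat ratio lay between 0.88 and 1.44 with vehicle and between 0.894 and 1.29 with monocrotaline. The mean log2 ratio was 0.14 ± 0.30 for vehicle (SD, n = 6) against 0.12 ± 0.22 for monocrotaline (SD, n = 5), a difference of −0.02 (exact permutation p = 0.916, adjusted p = 0.916). Leaving out each library in turn moved the difference between −0.09 and 0.06. The 2 genes thus fell by amounts that could not be told apart within this spread, which does not show that they fell equally.

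**Figure D3:**
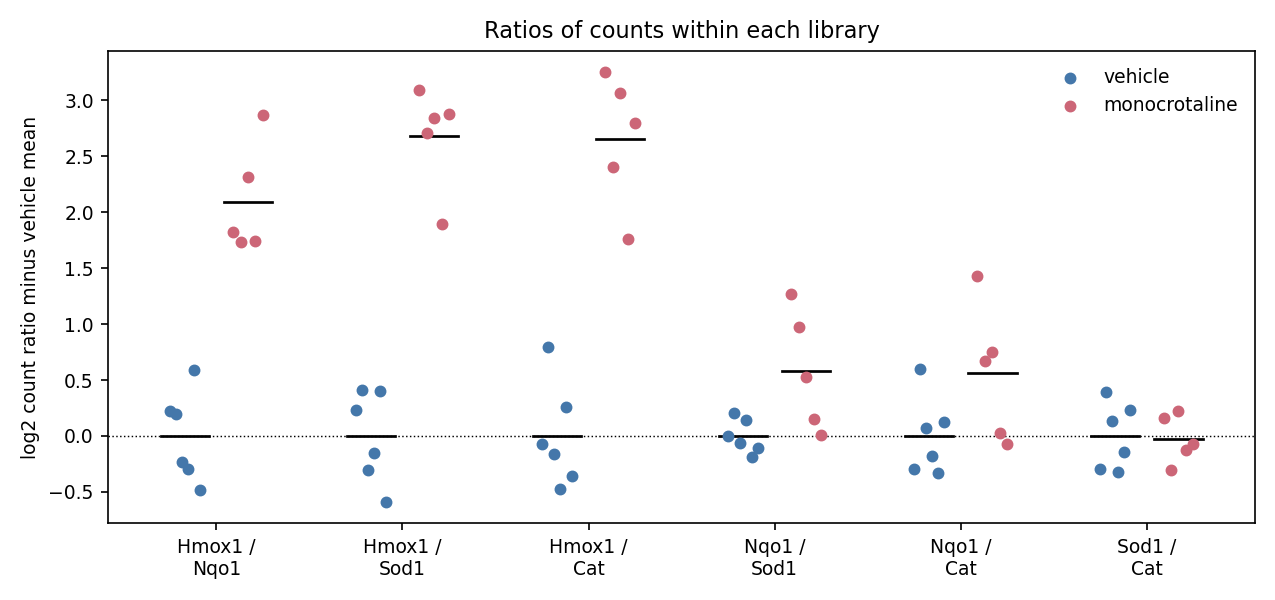
Log2 ratio of counts for each of the 6 pairs of genes, minus the vehicle mean of that ratio, with 1 point per library and a bar at each group mean. The 3 ratios with Hmox1 as numerator separate the groups, by 2.10 to 2.68 on average, and the Sod1 to Cat ratio overlaps.

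**Figure D4:**
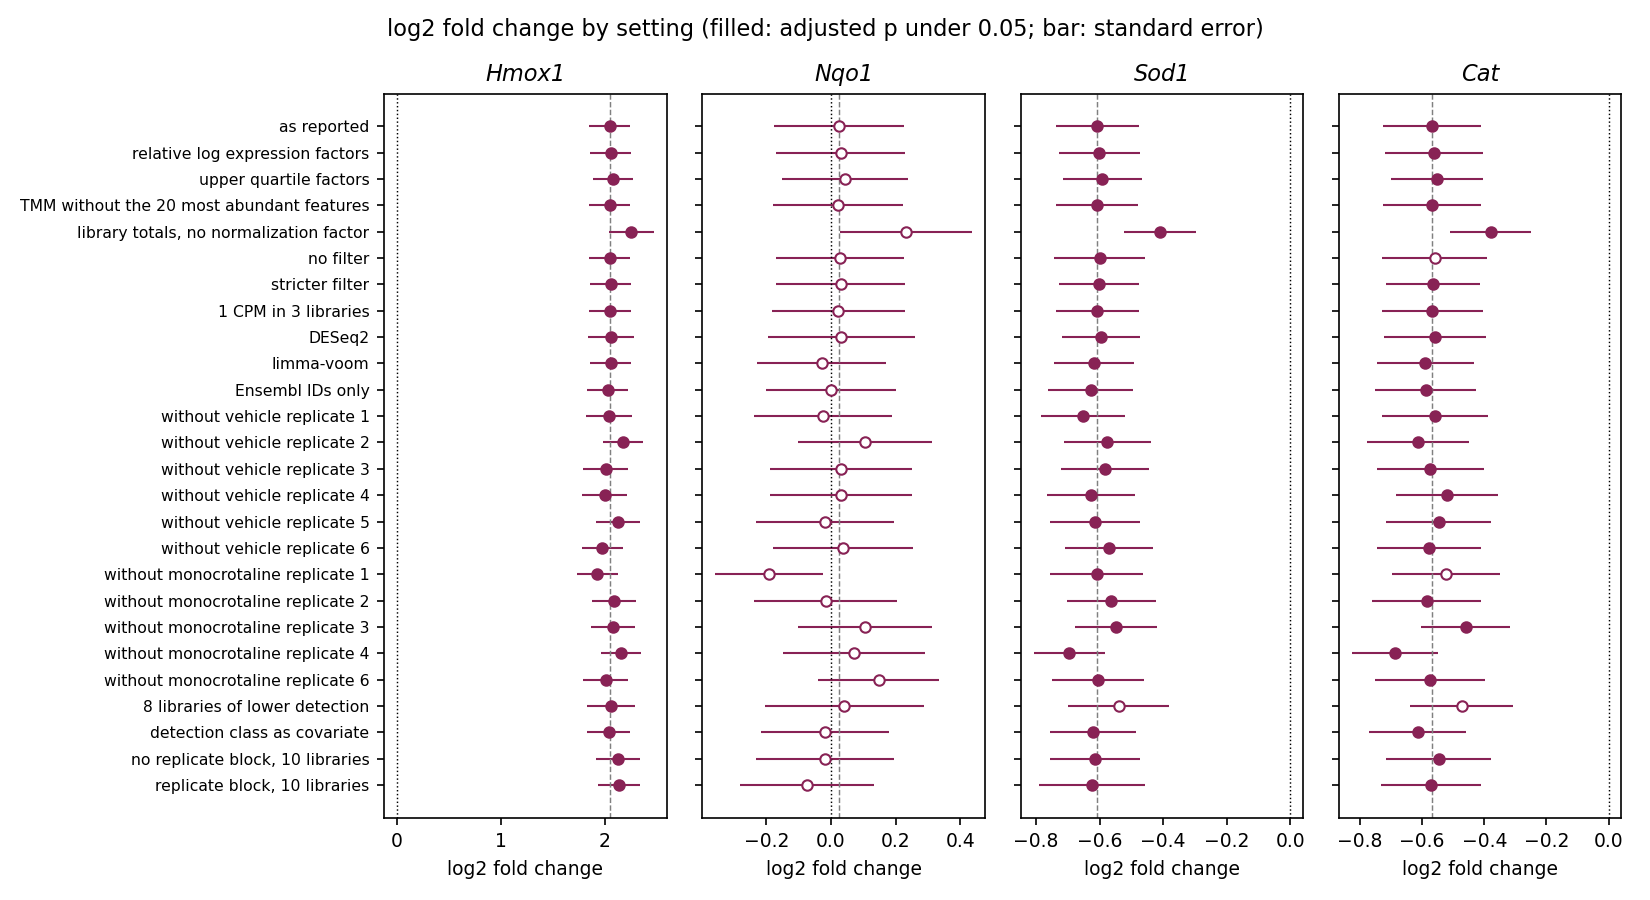
Log2 fold change, monocrotaline over vehicle, of each gene under the reported setting and its alternatives, apart from the FDR of 0.01 and the minimum fold of 1.5, which are not drawn, with the standard error as a bar; filled points have an adjusted p under 0.05. Hmox1 stays between 1.93 and 2.26 and filled throughout, Nqo1 has open points on both sides of 0, and Sod1 and Cat stay below 0, with 1 open point for Sod1 and 3 for Cat among the alternatives drawn.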

How the data were processed

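RNA was sequenced from 11 right ventricle libraries. The authors deposited whole-number read counts per feature with no normalization. Per the submitters' processing notes, bcl2fastq, FastQC, cutadapt, HISAT2 and StringTie were used; for versions, genome build, annotation and strand setting the entry is "not given in the sources used here". A second table, deposited by the authors, holds log2 fold changes, log2 CPM, p-values and FDR, per the file headers; the base and direction were checked against fold changes from the counts (slope 0.999), and the tool behind it is not given in the sources used here. Columns were mapped to libraries by their titles, and 0 columns were left over.

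All features were fitted with edgeR 4.0.16 in R 4.3.3: filterByExpr defaults (minimum count 10, minimum total 15), TMM, robust quasi-likelihood test, Benjamini-Hochberg adjustment over the 15099 features left. Standard errors were derived from the log2 fold change and the F statistic, and 95% intervals use the test's degrees of freedom. CPM use TMM-scaled library sizes. Count ratios had 1 added to each count on the log2 scale and were compared by exact permutation. On simulated counts for 14963 features, 69.7% of 66 features changed 2-fold and 18.5% of 65 changed 1.5-fold were recovered, with 5 false calls among 122; the real comparison has far more calls. No library was a copy of another (lowest chi-square per degree of freedom 15.5 over 55 pairs). 

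The chosen genes and lists were picked with earlier results of these data known. The named genes are all chosen IDs with a row. A list of 56 further pathway symbols, cell type marker lists and the search for genes of like pattern needed names, and 0 entries of the RefSeq table (GRCr8) carry an Ensembl ID, so they were not analysed here. CCAAT, GC box and TATA box searches were added after seeing the sequences. Alternatives were other normalizations (relative log expression, upper quartile, TMM without the 20 most abundant features, none), filters, DESeq2 1.42.0, limma-voom 3.58.1, Ensembl IDs only, leaving out each library, the 8 libraries with reads in under 25000 features, that class as a covariate, the replicate number as a block, an FDR of 0.01 and a minimum fold of 1.5.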

Additional observations from a re-analysis of the deposited data

How the results depend on the processing

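The 27 alternatives are not all separate fits. The 10 libraries that share replicate numbers between groups are those left without vehicle replicate 5, and the FDR of 0.01 reuses the reported fit. Hmox1 was called higher under all 27 alternatives, with log2 fold changes of 1.93 to 2.26. Nqo1 was called in none, and its sign turned with limma-voom (−0.0294), the detection class as a covariate (−0.0187), the 10 libraries that share numbers (−0.0192) and the replicate block on them (−0.0745); leaving out each library gave −0.19 to 0.15. For Sod1, leaving out each library gave −0.70 to −0.55, and for Cat −0.69 to −0.46. Of Sod1 and Cat, 2 were called lower as reported. With no filter 1 was called, Sod1, and the call of Cat (−0.56) was lost. In the 8 libraries of lower detection 0 were called (Sod1 −0.54, Cat −0.47). At an FDR of 0.01 (9.85% of features called), 1 was called, Sod1, and that of Cat (−0.57) was lost. Against a minimum fold of 1.5 (3.17%), 0 were called (Sod1 −0.61, Cat −0.57). Both settings are stricter by construction. Leaving out each library gave 1 to 2. For the count ratios, leaving out each library gave differences of 1.90 to 2.21 for Hmox1 over Nqo1, 2.56 to 2.88 over Sod1, 2.51 to 2.88 over Cat, 0.41 to 0.73 for Nqo1 over Sod1, 0.345 to 0.72 for Nqo1 over Cat (called only without monocrotaline replicate 6, exact permutation, adjusted p = 0.0457) and −0.0871 to 0.0554 for Sod1 over Cat. In the 8 libraries the differences were 2.07, 2.59, 2.53 and 0.53 for Hmox1 over Nqo1, Sod1 and Cat and for Nqo1 over Sod1. Nqo1 over Sod1 was not called there (exact permutation p = 0.171, adjusted p = 0.257). The 3 ratios with Hmox1 each had p = 0.0286 by exact permutation, the smallest that 4 libraries against 4 can give, and an adjusted p of 0.0571. The causes of the turned signs and of the loss with no filter were not tested.

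Deviations from the group mean correlated across features at 0.06, −0.03, −0.21, 0.16 and −0.20 for the libraries numbered 1, 2, 3, 4 and 6, which were therefore treated as sharing only a number. With the replicate block, Hmox1 was at 2.14, Sod1 at −0.62 and Cat at −0.57 and all 3 were called, as without the block on the same 10 libraries; over all features the block gave 1348 higher and 1231 lower, against 1731 and 1441. Leaving out the filter raised the features tested to 33648 and gave 971 called lower, against 1678. In the 8 libraries of lower detection 653 of 14871 features were called lower, against 1678 of 15099, and 11.7% were called in either direction, against 23.8%. Intervals of Nqo1 are set by the spread between libraries more than by its depth.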

Other observations

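Within the 6 vehicle libraries, Sod1 and Cat had a negative correlation that did not pass the test, although both were lower with monocrotaline. Pearson's r of log2 CPM was −0.72 (exact permutation p = 0.11, adjusted p = 0.33 over 6 pairs of genes) and Spearman's rho was −0.77 (exact permutation p = 0.103). Without the 2 libraries farthest from the median of Sod1, r was −0.90 over 4. Nqo1 and Sod1 had r = 0.73 (exact permutation p = 0.0958, adjusted p = 0.33) and rho = 0.83 (exact permutation p = 0.0583), which fell to r = 0.26 without the 2 libraries farthest from the median of Nqo1. None of the 6 pairs passed adjustment, and both genes of a pair share the library and its scaling factor. The 5 monocrotaline libraries are too few for a correlation, and so are the 4 vehicle libraries left after 2 were taken out.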
